A study of Rattus norvegicus with 12 samples.

Results

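The genes examined here build or mark the fat cell, and were 9 in number. Pparg, Cebpa, Cebpb and Cebpd encode transcription factors of fat-cell formation that myeloid cells use as well, and Adipoq, Fabp4, Cfd, Retn and Lep encode products of the fat cell. They were chosen by name and not by a measured value, although earlier results of these data were known. Probe sets that the platform annotation assigned to exactly 1 of these symbols were taken, 14 of the 31042 tested, and each gene was read at the probe set with the highest mean over the 12 arrays. Such a probe set was found for 8 of the 9 genes, among 14217 genes measured in this way. Retn, the resistin gene, had none and was not analysed here.

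RNA came from the hematoma that filled an osteotomy gap of 1.5 mm in the left femur of female Sprague–Dawley rats, harvested on day 3 under an external fixator. The groups were old rats of 52 weeks with a semi-rigid (OSR) or a rigid fixator (OR), and young rats of 12 weeks with a semi-rigid (YSR) or a rigid fixator (YR). The semi-rigid fixator stood 15 mm and the rigid one 7.5 mm off the bone. Each group held 3 arrays, each hybridized with pooled total RNA of 3 animals, so that 9 animals per group were sampled and p-values measured the spread between pools. Neither an uninjured control nor a later day was among these arrays.

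Fat cells form when stromal progenitors switch on a cascade of transcription factors. C/EBP-beta and C/EBP-delta appear early and induce PPAR-gamma and C/EBP-alpha, which maintain each other and bind together at genes of lipid storage and at those of secreted products such as adiponectin. In bone marrow the same progenitors can instead become osteoblasts. The factors are not private to fat: C/EBP-alpha and C/EBP-beta direct granulocyte and monocyte development, and macrophages express PPAR-gamma and its target Fabp4. Because the hematoma is a bulk sample, fewer cells of a type and less RNA per cell cannot be told apart.

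Levels were log2 signal intensities, on which a difference of 1 is a fold of 2. Levels of different probe sets are not comparable, so the arrays of 1 probe set were set against each other. The exceptions were signals summed over a list, where the probe sets of highest signal weigh most, and comparison with the median of all probe sets. Array medians lay between 126.9 and 167.5 on the linear scale, and 9 of the 12 arrays had their nearest array in another group. As a sign of RNA length, the Gapdh control's 3' probe set was compared with its 5' one, and the ratio was 6.69 on the log2 scale in YSR replicate 1 and 2.95 in OR replicate 1, against 0.33 to 1.59 in the other 10 arrays. Over those 10 the YR arrays had the highest values, from 1.02 to 1.59. In the summed linear signal of each marker list, myeloid markers reached 127471 to 200522 in old and 129967 to 192554 in young rats, and erythroid markers 61352 to 104801 in old and 49777 to 95357 in young rats.

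The sequences of 4 windows before a transcription start are shown for motifs of C/EBP, CCAAT-binding and TATA-binding factors. Pparg, Cebpa and Adipoq had a pair of groups that did not overlap, as had Lep, the member nearest the floor of detection. Of all probe sets, 8.98% separated OSR from YSR, 13.8% OR from YR, 10.8% OSR from OR and 9.38% YSR from YR. Each of the 4 windows shown held a motif. The window of Cfd, which also had groups without overlap, and that of the upstream start of Pparg held none and are not shown. Each window held the 250 bases before the start, from RefSeq on build GRCr8, written 5′ to 3′ on the gene's strand. Capitals mark the C/EBP core TTGCNNAA, the CCAAT box CCAAT and the TATA box TATAAA, searched on both strands, and none of these matches overlapped another.
Pparg, downstream start, chr4:150154522-150154771, plus strand: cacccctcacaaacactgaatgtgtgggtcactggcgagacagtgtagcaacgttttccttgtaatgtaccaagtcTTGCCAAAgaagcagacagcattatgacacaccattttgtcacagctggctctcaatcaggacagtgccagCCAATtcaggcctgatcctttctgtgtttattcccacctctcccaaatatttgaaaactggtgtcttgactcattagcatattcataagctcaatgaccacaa
Cebpa, chr1:96896334-96896583, plus strand: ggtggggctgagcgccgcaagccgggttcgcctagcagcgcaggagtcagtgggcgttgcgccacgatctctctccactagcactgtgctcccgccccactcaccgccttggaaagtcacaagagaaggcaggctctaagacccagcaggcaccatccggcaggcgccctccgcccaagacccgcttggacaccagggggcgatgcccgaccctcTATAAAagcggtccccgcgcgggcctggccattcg
Adipoq, chr11:91240170-91240419, minus strand: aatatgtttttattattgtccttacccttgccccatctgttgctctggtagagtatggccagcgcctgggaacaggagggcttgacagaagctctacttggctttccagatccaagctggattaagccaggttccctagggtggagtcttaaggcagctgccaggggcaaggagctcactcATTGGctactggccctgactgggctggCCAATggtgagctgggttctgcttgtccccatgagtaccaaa
Lep, chr4:58626288-58626537, plus strand: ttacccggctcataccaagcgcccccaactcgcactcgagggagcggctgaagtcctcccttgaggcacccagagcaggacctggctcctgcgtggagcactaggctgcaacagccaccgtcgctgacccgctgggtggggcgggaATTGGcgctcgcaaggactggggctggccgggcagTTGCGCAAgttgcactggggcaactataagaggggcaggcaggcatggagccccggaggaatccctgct
Of all 33469 windows of this length, 9.22% held the C/EBP core, 34% the CCAAT box and 12.9% the TATA box. Windows were listed for 7 of the 9 genes, with 2 for Pparg, and 2, 3 and 2 of these 8 windows held the C/EBP core, the CCAAT box and the TATA box. The C/EBP core stood at the downstream start of Pparg, as TTGCCAAA, and in Lep, as TTGCGCAA, which reads the same on both strands. Adipoq had 2 CCAAT boxes, 1 on each strand. Cebpa had a TATA box that began 35 bases before the start. A match describes the letters of a window and not a bound factor.

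The fat-cell products Adipoq and Cfd had higher means in old than in young rats. In that comparison the products Fabp4 (-0.09) and Lep (-0.73) were below 0, as were 3 of the 4 transcription factors. Of these factors, Cebpd was above 0 in its other probe sets (0.51 and 0.34), and Cebpa in its dimmest probe set alone (0.70). With fixation in old rats, Pparg was lower and Cebpa higher in OSR than in OR, each without overlap of the arrays. Of all probe sets 10.8% separated these groups, and the second Cebpa probe set by mean signal did not. No member had an adjusted p under 0.05 in any of the 7 comparisons fitted with limma (Benjamini-Hochberg over all probe sets), and the smallest was 0.167. Over all probe sets 0.00322% passed that threshold between OSR and YSR, 0.00322% between OR and YR, 0.00644% between old and young, and 0% in each of the 4 comparisons of fixation and its interaction with age. An unadjusted p under 0.05 is therefore given as a description, beside its share of all probe sets. The comparisons share arrays, OR minus YR being part of old minus young, and are not independent of each other.

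**Figure D1:**
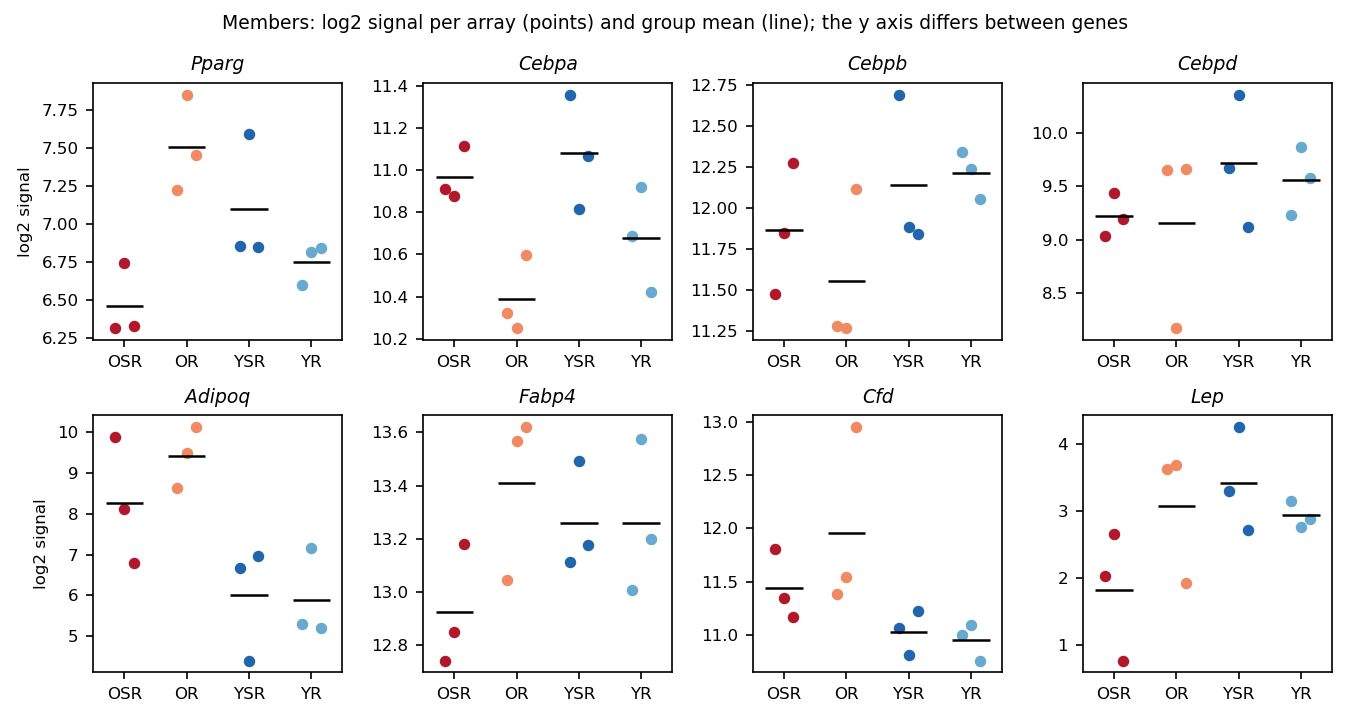
Log2 signal (y axis, a scale of its own for each gene) of the 8 measured genes in the arrays of OSR, OR, YSR and YR (x axis); points are arrays and lines group means. Adipoq sits between 8.64 and 10.13 in OR and between 5.21 and 7.16 in YR, and every OSR array of Pparg lies below every OR array.

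Adipoq encodes adiponectin, a hormone made almost solely by fat cells. Its log2 signal was 9.87, 8.12 and 6.80 in OSR, 8.64, 9.49 and 10.13 in OR, 6.68, 4.40 and 6.98 in YSR, and 5.30, 7.16 and 5.21 in YR. Every OR array was above every YR array, with a gap of 1.48, groups that 13.8% of all probe sets separated. The old and young arrays overlapped only through OSR replicate 3, which lay below YSR replicate 3 and YR replicate 2. In order of level the groups were OR (9.42 ± 0.75), OSR (8.26 ± 1.54), YSR (6.02 ± 1.41) and YR (5.89 ± 1.10; SD, n = 3 each). Old rats exceeded young rats by 2.89 ± 0.59 (SE, averaged over fixation), a fold of 7.41, with an unadjusted p of 0.000334 and an adjusted p of 0.167 in limma. Without OSR replicate 3 the difference was 3.25 and the adjusted p 0.0495, and over 19 alternatives the difference ran between 2.48 and 3.25 and the adjusted p between 0.0495 and 0.434. In the rigid groups OR exceeded YR by 3.53 ± 0.84 (SE; limma adjusted p = 0.247).

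With semi-rigid fixation OSR exceeded YSR in Adipoq by 2.24 ± 0.84 (SE; limma adjusted p = 0.959), and by 1.44 without OSR replicate 1 or 1.43 without YSR replicate 2. Neighbours in the order of levels were not separated by fixation. OSR minus OR was -1.16 (95% interval -2.97 to 0.66) and YSR minus YR was 0.13 (-1.68 to 1.95). Without the 2 arrays of highest Gapdh ratio the difference between old and young rats was 3.25. Skeletal muscle RNA varied strongly among the same arrays. The 3 arrays of highest Adipoq, OR replicate 3, OSR replicate 1 and OR replicate 2, held the 3 lowest log2 signals of the muscle creatine kinase Ckm, at 8.42, 7.66 and 4.72, against 10.68 to 13.33 in the other 9. All 8 muscle markers were below 0 in old minus young (median -1.42), and their summed linear signal ran between 1474 and 79438 in OSR, 1108 and 41924 in OR, 18310 and 43125 in YSR, and 28488 and 52509 in YR. The part of muscle in the Adipoq difference was not tested.

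Among 28 other genes of lipid storage, all measured, 7 were higher and 0 lower in old rats at an unadjusted p under 0.05, with a median difference of 0.18. Over all probe sets 8.59% passed in either direction, 4.7% upwards and 3.89% downwards, with a median of 0.02. Of the 28 genes, 20 were above 0 and 8 below it, and the genes named below are from the higher side. Lpl and Cd36, with mean log2 signals of 13.21 and 12.33, weighed most in the summed linear signal of the list. This sum overlapped between the ages. It ran between 26758 and 32163 in OSR, 29082 and 33839 in OR, 24707 and 39994 in YSR, and 29252 and 30721 in YR. Thrsp, a regulator of fatty acid synthesis, had a log2 signal of 8.99, 8.09 and 7.70 in OSR, 8.81, 9.06 and 10.15 in OR, 7.25, 7.04 and 7.16 in YSR, and 6.0, 7.81 and 6.29 in YR. Only YR replicate 2 lay above an old array, OSR replicate 3. The difference was 1.88 ± 0.34 (SE; limma adjusted p = 0.129).

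The perilipin Plin1, which coats the lipid droplet of fat cells, had 8.71, 7.90 and 6.90 in OSR, 8.42, 8.74 and 9.19 in OR, 5.74, 6.38 and 7.09 in YSR, and 4.74, 6.92 and 4.79 in YR. Here too OSR replicate 3 was the only old array within the young range. Old rats exceeded young rats by 2.36 ± 0.43 (SE; limma adjusted p = 0.129). Cidec, which enlarges lipid droplets, was higher by 3.08 ± 0.69 (SE), although it ranged from 1.43 to 7.87 over all arrays and lay below the median of all probe sets. Plin1, Cidec and Gpd1, which makes the glycerol backbone of triglyceride, were named after their values had been seen. Pck1, an enzyme of glyceride-glycerol synthesis in fat, was higher by 1.94, Gpd1 by 1.04, the acyl-CoA synthetase Acsl1 by 0.54, and Dgat1, which makes triglyceride, by 0.31 (limma adjusted p of 0.307, 0.469, 0.400 and 0.435).

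Between OR and YR, 7 of the 28 lipid storage genes were likewise higher and 0 lower, with a median of 0.27, against 8.34% of all probe sets in either direction, 4.8% upwards and 3.54% downwards and a median of 0.04. OSR against YSR gave 2 higher and 0 lower, with a median of 0.05, against 4.36% of all probe sets in either direction. That OR minus YR and OSR minus YSR differed was not shown, since the interaction passed for 0 genes after adjustment. At an unadjusted p under 0.05 it passed for 0 upwards and 3 downwards, against 3.8% of all probe sets in either direction. G0s2, which blocks the lipase that breaks down stored fat, was the 1 member of the list that passed the unadjusted threshold with fixation averaged over age. Its difference was -1.01 ± 0.18 (SE; limma adjusted p = 0.638), and 5.73% of all probe sets passed in that comparison.

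**Figure D2:**
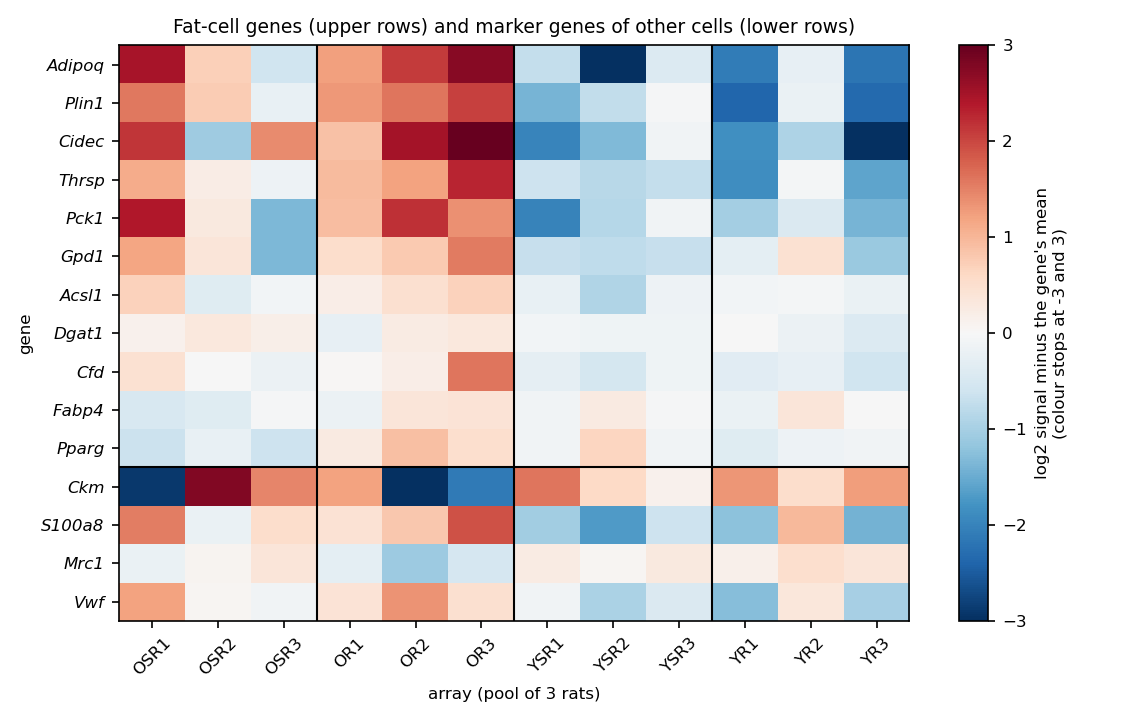
Log2 signal minus the gene's mean over 12 arrays (colour, from -3 to 3) for 11 fat-cell genes and 4 marker genes of other cells (y axis) in each array (x axis). The lipid storage genes drawn were all higher in old rats, whereas 8 of the 28 on their list were below 0. Adipoq, Plin1 and Thrsp are above their means in 5 of 6 old arrays, the exception being OSR replicate 3, whereas Fabp4 and Pparg do not follow that split and Ckm is lowest in OSR1, OR2 and OR3.

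Cfd encodes adipsin, the complement factor D secreted by fat cells and also made by monocytes and macrophages. Its log2 signal was 11.81, 11.35 and 11.17 in OSR, 11.38, 11.54 and 12.95 in OR, 11.07, 10.81 and 11.22 in YSR, and 11.01, 11.10 and 10.76 in YR. Every OR array was above every YR array, by 0.28 at the nearest, groups that 13.8% of all probe sets separated. OR replicate 3 stood far above the rest, and it also had the highest signals of the neutrophil genes S100a8 (15.02) and S100a9 (15.41). Old rats exceeded young rats by 0.71 ± 0.23 (SE), a fold of 1.63 (limma adjusted p = 0.380), and by 0.46 without OR replicate 3. OR exceeded YR by 1.00 ± 0.33 (SE; limma adjusted p = 0.413), and by 0.51 without OR replicate 3. OSR minus YSR was 0.41 (95% interval -0.30 to 1.12).

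Fabp4 encodes the fatty acid-binding protein of fat cells and macrophages. It had 12.74, 12.85 and 13.18 in OSR, 13.04, 13.57 and 13.62 in OR, 13.11, 13.49 and 13.18 in YSR, and 13.01, 13.57 and 13.20 in YR. The 12 arrays lay within 0.88 log2 units of each other, and old and young arrays overlapped throughout. Old minus young was -0.09 with a 95% interval of -0.39 to 0.21, and OSR was below OR by -0.49 ± 0.20 (SE; limma unadjusted p = 0.028, adjusted p = 0.901). For old minus young the 95% interval of Adipoq was 1.61 to 4.17.

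Lep, the gene of the satiety hormone leptin, was close to the floor. Its log2 signal was 2.04, 2.66 and 0.77 in OSR, 3.63, 3.69 and 1.93 in OR, 3.29, 4.26 and 2.72 in YSR, and 3.15, 2.77 and 2.89 in YR. Every OSR array lay below every YSR array, by 0.07, with 8.98% of all probe sets separating these groups. Old minus young was -0.73 ± 0.56 (SE; limma adjusted p = 0.751), and -0.18 when 16 was added to the signal before the logarithm. At so low a signal no difference was detectable.

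**Figure D3:**
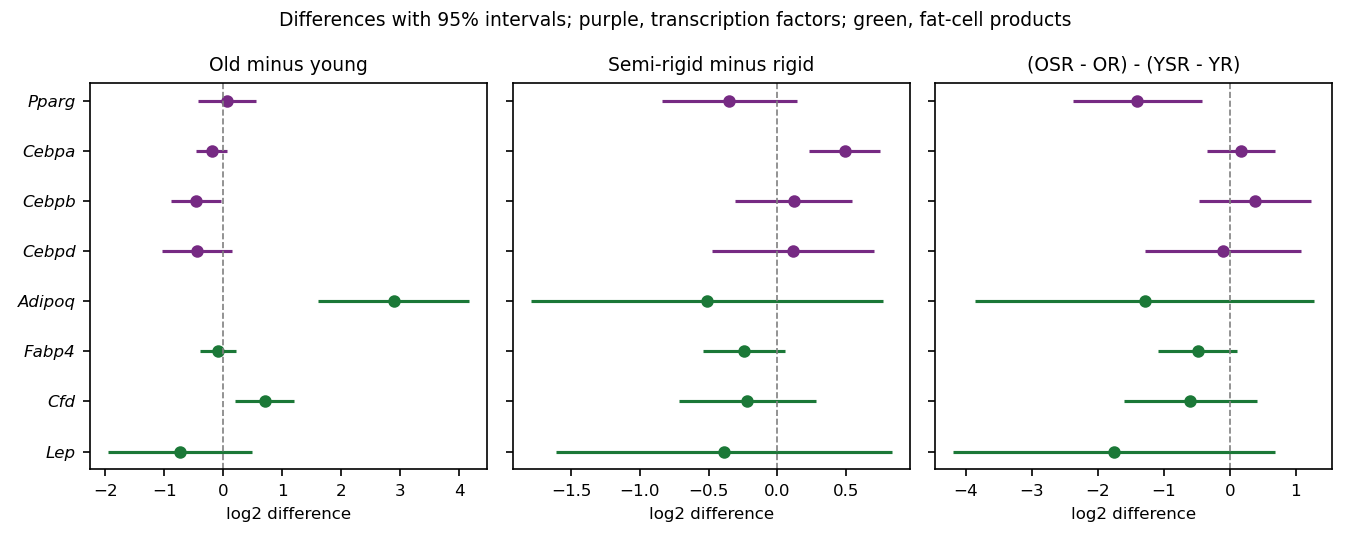
Log2 differences with 95% intervals (x axis) of the 8 genes (y axis) for old minus young, semi-rigid minus rigid, and the interaction. Adipoq at 2.89 and Cfd at 0.71 lie above 0 for age and Cebpb at -0.47 below it, Cebpa at 0.49 is the only interval clear of 0 for fixation, and Pparg at -1.40 the only one for the interaction.

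Pparg, the nuclear receptor at the head of fat-cell formation and a regulator of macrophages, was the 1 member whose arrays separated without overlap by fixation at both ages, in opposite directions. Its log2 signal was 6.31, 6.74 and 6.33 in OSR, 7.23, 7.85 and 7.45 in OR, 6.86, 7.59 and 6.85 in YSR, and 6.60, 6.81 and 6.84 in YR. Every OSR array lay below every OR array, by 0.49 at the nearest, and every YSR array above every YR array, but by only 0.006. Of all probe sets 10.8% separated OSR from OR, 9.38% separated YSR from YR, and 0.38% did both in opposite directions. OSR minus OR was -1.05 ± 0.32 (SE), a fold of 0.483 (limma unadjusted p = 0.0063, adjusted p = 0.896). YSR minus YR was 0.35 (95% interval -0.35 to 1.04), and 0.10 without YSR replicate 2.

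The interaction of age and fixation in Pparg was -1.40 ± 0.45 (SE; limma unadjusted p = 0.00904, adjusted p = 0.990), the only one of 8 members past an unadjusted 0.05, as were 3.8% of all probe sets. It ran between -1.66 and -1.15 over the alternatives. In order of level the groups were OR (7.51 ± 0.32), YSR (7.10 ± 0.43), YR (6.75 ± 0.13) and OSR (6.46 ± 0.24; SD, n = 3 each), and the difference between old and young averaged over fixation was 0.06 ± 0.23 (SE). OR exceeded YR by 0.76 ± 0.32 (SE; limma adjusted p = 0.566). The Pparg probe set lay at a mean of 6.96, under the median of 7.16 over all probe sets.

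Between OSR and YSR, 2 of the 8 members did not overlap, Pparg and Lep, both lower in OSR, against 8.98% of all probe sets. Between OR and YR these were Pparg, Adipoq and Cfd, all higher in OR, against 13.8% of all probe sets. At an unadjusted p under 0.05, 1 member, Adipoq, passed between OSR and YSR, against 4.36% of all probe sets. Between OR and YR, 3 members were higher and 1, Cebpb, lower, against 4.8% and 3.54% of all probe sets. With the fixation averaged, 2 were higher and 1 lower in old rats, against 4.7% and 3.89%, and 0 members separated all 6 old from all 6 young arrays, as 0.399% of all probe sets did.

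Cebpa encodes C/EBP-alpha, which commits cells to the fat and the granulocyte lineage. Its brightest probe set had 10.91, 10.88 and 11.12 in OSR, 10.32, 10.25 and 10.60 in OR, 11.36, 10.81 and 11.07 in YSR, and 10.69, 10.92 and 10.42 in YR. Every OSR array was above every OR array, groups that 10.8% of all probe sets separated in either direction. YSR and YR overlapped through YSR replicate 2 and YR replicate 2. Semi-rigid exceeded rigid fixation by 0.49 ± 0.12 (SE), a fold of 1.40 (limma unadjusted p = 0.00131, adjusted p = 0.818). OSR exceeded OR by 0.58 ± 0.17 and YSR exceeded YR by 0.40 ± 0.17 (SE; limma adjusted p of 0.880 and 0.991), the second being 0.26 without YSR replicate 1. Old minus young was -0.20 (95% interval -0.46 to 0.06), and 0.70 ± 0.97 (SE) in the dimmest of its probe sets.

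At an unadjusted p under 0.05, Cebpa was the 1 member past the threshold for fixation averaged over age, as were 5.73% of all probe sets, and the 1 member for YSR against YR, as were 4.37%. Pparg, Cebpa and Fabp4 passed for OSR against OR, as did 5.26%. The 5 probe sets of Cebpa all had higher means in semi-rigid than in rigid arrays. Probe sets of 1 gene are not independent measures. In 2 of them, the fourth and the third by mean signal, all 6 semi-rigid arrays lay above all 6 rigid arrays, a separation found in 0.254% of all probe sets. Their differences were 0.73 ± 0.12 and 0.59 ± 0.12 (SE; limma adjusted p = 0.638 each). The second probe set overlapped between OSR and OR and between YSR and YR, with YSR minus YR at 0.14. Averaged over age, it differed by 0.32 ± 0.13 (SE) and the dimmest by 2.07 ± 0.97 (SE). This dimmest probe set read 2.14 in OR replicate 1 and 4.29 in YSR replicate 1, the 2 arrays of highest Gapdh ratio, and between 4.03 and 8.46 in the rest. Without these 2 arrays the difference in the brightest probe set was 0.40.

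**Figure D4:**
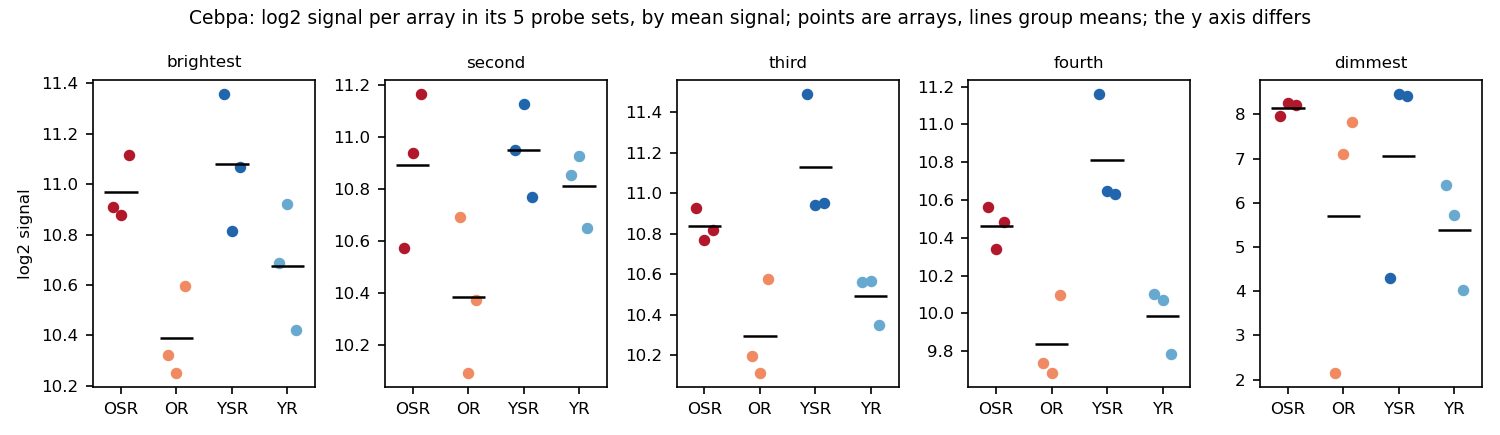
Log2 signal (y axis, a scale of its own for each panel) of the 5 Cebpa probe sets, from the brightest to the dimmest, in OSR, OR, YSR and YR (x axis); points are arrays and lines group means. All 6 semi-rigid arrays lie above all 6 rigid arrays in the third and the fourth panel. The rightmost panel shows low readings, among them 2.14 in OR, 4.03 in YR and 4.29 in YSR.

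Cebpb encodes C/EBP-beta, an early factor of fat-cell formation and an activator of inflammatory genes in macrophages. It had 11.48, 11.85 and 12.27 in OSR, 11.28, 11.26 and 12.11 in OR, 12.69, 11.88 and 11.84 in YSR, and 12.35, 12.24 and 12.06 in YR. The groups overlapped in every comparison. Old minus young was -0.47 ± 0.20 (SE; limma unadjusted p = 0.034, adjusted p = 0.529), and -0.26 without the 2 arrays of highest Gapdh ratio, of which YSR replicate 1 held the highest Cebpb signal. OR minus YR was -0.66 ± 0.28 (SE; limma adjusted p = 0.561).

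Cebpd encodes C/EBP-delta, the partner of C/EBP-beta in the early phase. Its signal was 9.04, 9.44 and 9.19 in OSR, 9.65, 8.17 and 9.66 in OR, 9.67, 10.36 and 9.12 in YSR, and 9.23, 9.87 and 9.58 in YR. No comparison separated its groups. Old minus young was -0.45 (95% interval -1.04 to 0.14). Its 3 probe sets disagreed in sign, the others giving 0.51 ± 0.70 and 0.34 ± 0.67 (SE), 1 of them reading 4.22 in YSR replicate 1 and 6.66 in OR replicate 1.

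Regulators of fat-cell formation beyond the members were measured in 26 of 28 cases, of which 4 were higher and 2 lower in old rats at an unadjusted p under 0.05 (median 0.05), against 4.7% of all probe sets upwards and 3.89% downwards. Egr2, an early inducer of the C/EBP factors in cultured mouse cells, had a difference of -0.94 ± 0.21 (SE; limma adjusted p = 0.207). Nr2f2, an orphan nuclear receptor of vessel and stromal cells, differed by 0.66 ± 0.20 and Ebf1, which activates Pparg, by 0.62 ± 0.23 (SE; limma adjusted p of 0.341 and 0.460). Nr3c1, the glucocorticoid receptor, was lower in OR than in YR by -0.44 ± 0.19 (SE; limma adjusted p = 0.568). Zfp423, a marker of committed fat-cell progenitors in mice, differed by 1.37 ± 0.28 between old and young rats (SE; limma adjusted p = 0.178), and Dlk1, which progenitors lose as they differentiate, by -1.69 ± 0.55 (SE; limma adjusted p = 0.375); both lay below the median of all probe sets and were named after their values had been seen.

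Of 17 further adipokines and receptors measured from a list of 19, 2 were higher and 1 lower in old rats (median 0.27), against the same 4.7% and 3.89%. Lcn2, a siderophore-binding protein of neutrophils and fat cells that also stood on the list of inflammatory genes, differed by 1.87 ± 0.54 and Cmklr1, the chemerin receptor of macrophages, by -0.65 ± 0.20 (SE; limma adjusted p of 0.320 and 0.361). Rbp4, a retinol carrier, was higher in OR than in YR by 1.07 ± 0.47 (SE; limma adjusted p = 0.572), and Rarres2, the chemerin gene, had an interaction of -1.17 ± 0.41 (SE; limma adjusted p = 0.990).

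Markers of other cells differed between the ages in both directions, and their counts stand against the 4.7% of all probe sets that were higher and the 3.89% that were lower in old rats at an unadjusted p under 0.05. Of 17 myeloid markers, 2 were higher and 5 lower in old rats at an unadjusted p under 0.05 (median -0.29). The 2 were the neutrophil proteins S100a9 (1.45 ± 0.36, SE) and S100a8 (1.68 ± 0.43, SE), whose limma adjusted p were 0.241 and 0.257. The macrophage genes Mrc1 (-0.54 ± 0.14, SE) and Aif1 (-0.45 ± 0.13, SE) had limma adjusted p of 0.263 and 0.305. Of 12 inflammatory genes that C/EBP factors are known to activate, 4 were higher and 2 lower (median 0.22). Ptgs2, the inducible cyclooxygenase, and Il6 were higher in old rats by 1.35 ± 0.33 and 0.67 ± 0.17, and the chemokine Ccl2 differed by -0.59 ± 0.14 (SE; limma adjusted p between 0.212 and 0.257).

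Endothelial markers were higher in 5 and lower in 0 of 9 (median 0.48), again against 4.7% and 3.89% of all probe sets. Vwf differed by 1.14 ± 0.31 and Esam by 0.48 ± 0.14 (SE; limma adjusted p of 0.289 and 0.337). Tek and Kdr, receptors of vessel growth, differed by 0.83 and 0.68. The summed endothelial signal ran between 5558 and 11272 in OSR, 8504 and 15885 in OR, 5517 and 6734 in YSR, and 6176 and 7416 in YR. Of 10 fibroblast and progenitor markers, 3 were higher and 2 lower (median 0.25). Thy1 differed by 0.84, Pdgfrb by 0.61, Lum by 0.34 and Pdgfra by -0.56. Among 7 erythroid markers 1 was higher, the erythroid factor Klf1 at 1.60 (median 0.73), and among the 8 muscle markers 0 passed. The part of any of these cells in the members' differences was not tested.

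Over the 12 arrays Adipoq and Cfd were the fat-cell products most alike, with Pearson's r of 0.82, and 0.62 for deviations from the group means. Adipoq and Fabp4 gave r = -0.02, Pparg and Fabp4 0.70, and Cebpa and Cebpb 0.64. Arrays share their group and their RNA quality, so these values are descriptions. Among 12366 probe sets of other genes at or above the median, Lbp, an acute-phase lipopolysaccharide-binding protein, was most like Adipoq (r = 0.96), followed by Cdo1, Timp3, Slc9b2 and Thrsp (0.93 each). Most like Cfd were Hp, the haptoglobin gene, and Lcn2 (0.92 each), followed by Ighl2, Kcnj8 and Pglyrp1. Cebpb was most like Jun (0.95), with Fcgr2b, Ninj1, Washc4 and Nqo1 next. Cebpa was most like Slc27a1 (0.94), then Myd88, Trim41, Ubash3b and Slc7a7. Cebpd was led by Rps6kc1 (0.90), Peli1, Tmem62, Plcd1 and Tia1, and Fabp4, with the lowest likeness, by Dapp1 (0.83), Psmb9, Mettl3, Pdcd10 and Kbtbd2.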

How the data were processed

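Signal intensities on a linear scale, deposited by the authors for 31099 probe sets on 12 one-colour Affymetrix rat arrays, were used. The submitters' processing notes name GCOS 1.2, the arrays share a trimmed mean, and the paper's methods state another summary method. Depth does not apply, and the number of arrays limits the precision. A floor of 1 was set before the log2 was taken, and 57 control probe sets were left out. Of the rest, 20826 had 1 symbol, 436 several and 9780 none. The comparisons came from 1 fit of group means in limma 3.58.1, with a trended eBayes prior (R 4.3.3), over all probe sets, with Benjamini-Hochberg adjustment and calls at an adjusted p under 0.05. The fit was tested on simulated data. Plots and promoter searches used Python 3.11.15, pandas 2.3.3, numpy 2.4.6 and matplotlib 3.10.9.

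Members and lists were chosen with earlier results of these data known. Every member was named. Of each of 9 lists, calls were named, and up to 4 others with the smallest unadjusted p for old minus young or OR minus YR among genes at or above the median of 7.16. For likeness, 5 probe sets were named for each member at or above that median, which left out Pparg and Lep. The 21 alternatives covered normalization, the pseudocount of 16, dim probe sets, the intensity trend, the arrays fitted, the methods' t-test, all probe sets of a gene, the replicate block, RNA quality and each array left out. Exact permutation was not run. With 3 arrays against 3 it cannot reach an adjusted threshold, a reason that does not cover the comparisons of 6 arrays against 6.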

Additional observations from a re-analysis of the deposited data

Results flagged for a closer look

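Pparg stood out because fixation separated its arrays in opposite directions at the 2 ages, with every OSR array below every OR array and every YSR array above every YR array. The difference between the 2 effects was -1.40 (limma unadjusted p = 0.00904, adjusted p = 0.990), and in young rats the gap between the nearest arrays was only 0.006 on the log2 scale and the difference 0.10 without YSR replicate 2, against 0.35 with it.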

How the results depend on the processing

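Of the 21 alternatives, all were run for the pairs of groups, and 19 for the other 3 comparisons. With these 0 members were called in 6 of the 7 comparisons, and between 0 and 1 for old minus young, the 1 being Adipoq without OSR replicate 3 at 3.25. Same-numbered arrays were not paired (median correlation of deviations 0.019 over 18 same-numbered pairs, against 0.020 over 36 others), and with the replicate block 0 members were called in each comparison, with an adjusted p of 0.294 for Adipoq in old minus young. The cause of the following changes of sign was not tested. Pparg in old minus young was -0.044 after quantile normalization and ran between -0.026 and 0.18 with single arrays left out. The mean over all probe sets gave Cebpd 0.13 for old minus young, -0.083 for semi-rigid minus rigid and 0.81 for the interaction. Without the 2 arrays of highest Gapdh ratio, Cebpb for semi-rigid minus rigid was -0.087 and Cebpd for the interaction 0.13. With single arrays left out, semi-rigid minus rigid ran between -0.019 and 0.26 for Cebpb, -0.14 and 0.26 for Cebpd, and -0.36 and 0.029 for Cfd, and the interaction of Cebpd between -0.59 and 0.23. Of the remaining log2 differences, 638 kept their direction and side of the threshold. The methods' t-test at its own limits (p under 0.05 before adjustment, fold above 2) gave Adipoq for OR against YR and Pparg for OSR against OR, among 795 and 467 probe sets, and 0 probe sets after Benjamini-Hochberg adjustment. Signals near the floor, as for Lep, and 3 pools per group limit what could be detected.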

Other observations

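For semi-rigid minus rigid fixation averaged over age, of 9 endothelial markers 0 were higher and 5 lower in semi-rigid arrays at an unadjusted p under 0.05 (median -0.56), as against 5.73% of all probe sets in either direction. Among 26 other regulators of fat-cell formation 0 were higher and 2 lower, Ddit3, a stress-induced C/EBP family member that dimerizes with the others (-0.47 ± 0.11, SE; limma adjusted p = 0.781), and Zfp423 (-0.79 ± 0.28, SE; limma adjusted p = 0.845). Socs3, a feedback inhibitor of cytokine signalling, was higher by 1.55 ± 0.49 and the myeloid integrin Itgam by 0.98 ± 0.31 (SE; limma adjusted p = 0.845 each). These genes were named after their values had been seen, and 0 members of these lists passed the adjusted threshold.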
